A study of Mus musculus with 38 samples.

Results

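Cholesterol synthesis was followed through 7 genes, Hmgcs1, Idi1, Fdft1, Sqle, Lss, Cyp51 and Insig1, in the hippocampus of individual mice. They were taken as genes of cholesterol synthesis and its feedback control that are known targets of the sterol regulatory element-binding proteins (SREBPs), each matched by Ensembl identifier to its mouse symbol, and they are 7 of the 48709 genes counted in every library. All 7 passed the filter on low counts in every comparison. The level of Mbp, the gene of myelin basic protein, was used as the measure of myelin in each mouse.

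RNA sequencing of hippocampus was carried out on 38 mice in 8 groups. WT mice and mice with the APPPS1ΔE9 transgenes, all on a C57BL/6 background, ate placebo chow or chow that held 2 g of the aggregation inhibitor anle138b per kg for 4 months. In the pre-plaque group the chow was started at 2 months of age and the tissue was taken at 6 months, with 4 mice for each genotype and chow. In the post-plaque group it was started at 6 months and the tissue was taken at 10 months, with 5 mice for each genotype and chow except for the APPPS1ΔE9 mice on anle138b, which were 7. The transgenes, through which amyloid plaques form with age, were carried only by the APPPS1ΔE9 groups, and each library came from a mouse of its own. The cohort names refer to the start of treatment. The paper counted plaques in APPPS1ΔE9 mice of both cohorts.

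The brain makes its own cholesterol, since lipoproteins of the blood do not cross the blood-brain barrier, and myelin holds most of it. Neurons, astrocytes and oligodendrocytes all carry the pathway, which is most active in oligodendrocytes while they lay down myelin. When the sterol content of the endoplasmic reticulum falls, SREBPs are cut free from the membrane and raise transcription of the synthesis genes together. Hmgcs1 makes HMG-CoA, the precursor of mevalonate, and Idi1 interconverts the isoprenoid building blocks made from it. Fdft1 is squalene synthase, Sqle oxidizes squalene, Lss closes the ring to lanosterol, and Cyp51 removes a methyl group from lanosterol. Insig1 holds the SREBP escort protein in the endoplasmic reticulum when sterols are plentiful, and is itself an SREBP target.

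In GRCm38, Hmgcs1 (ENSMUSG00000093930) lies on chromosome 13 from 119690379 to 119708260 and Idi1 (ENSMUSG00000058258) on chromosome 13 from 8885501 to 8892451, both on the plus strand. Insig1 (ENSMUSG00000045294, chromosome 5 from 28071363 to 28078662), Sqle (ENSMUSG00000022351, chromosome 15 from 59315077 to 59331192) and Lss (ENSMUSG00000033105, chromosome 10 from 76531588 to 76557138) are also on the plus strand. Cyp51 (ENSMUSG00000001467, chromosome 5 from 4081145 to 4104746) and Fdft1 (ENSMUSG00000021273, chromosome 14 from 63145150 to 63179578) are on the minus strand. Promoter sequences from RefSeq on GRCm38.p6 matched 5 of the 7 genes. The 250 bases before the RefSeq start of Hmgcs1, Insig1 and Cyp51, which differs by some bases from the gene bounds above (GENCODE), are shown, Hmgcs1 because its window was the only one of the 5 with the letters of the sterol regulatory element, Insig1 because it was the only one of the 7 that edgeR called between post-plaque genotypes on placebo, and Cyp51 as a gene of the later pathway without those letters. They are written 5′ to 3′ on the strand of the gene, at chr13:119690101-119690350 (plus), chr5:28071162-28071411 (plus) and chr5:4104698-4104947 (minus). Capitals mark the letters TCACNCCAC of the sterol regulatory element, those of the CCAAT box and GGGCGG of the GC box, each searched on both strands, so that a match on the other strand reads as its reverse complement.
Hmgcs1: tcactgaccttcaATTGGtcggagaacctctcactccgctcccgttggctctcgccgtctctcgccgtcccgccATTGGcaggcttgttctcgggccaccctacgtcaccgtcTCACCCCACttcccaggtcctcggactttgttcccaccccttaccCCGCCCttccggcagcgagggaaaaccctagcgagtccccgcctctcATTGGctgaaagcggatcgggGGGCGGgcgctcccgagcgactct
Insig1: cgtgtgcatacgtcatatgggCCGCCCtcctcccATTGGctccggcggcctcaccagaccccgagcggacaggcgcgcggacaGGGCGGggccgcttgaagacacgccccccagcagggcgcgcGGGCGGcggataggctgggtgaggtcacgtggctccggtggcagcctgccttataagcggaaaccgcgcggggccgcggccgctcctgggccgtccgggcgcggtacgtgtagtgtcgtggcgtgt
Cyp51: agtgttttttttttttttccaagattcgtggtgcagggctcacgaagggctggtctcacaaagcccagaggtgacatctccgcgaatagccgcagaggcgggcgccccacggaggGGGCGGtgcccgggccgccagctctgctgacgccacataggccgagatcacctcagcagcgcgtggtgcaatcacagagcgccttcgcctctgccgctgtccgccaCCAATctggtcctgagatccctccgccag

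The sterol regulatory element letters were found in 1 of the 5 windows, with their first base 137 bases before the RefSeq start of Hmgcs1, and in 346 of 32851 RefSeq promoter windows of the same length (1.05%). CCAAT was present in 5 of 5 windows, against 33.8% of all promoters. The GC box was also present in 5 of 5, against 32.7% of all promoters. None of these matches overlapped another motif in the 3 sequences shown. The letters are a description of the sequence and do not show that a factor is bound. Only this spelling of the sterol regulatory element was searched, so a window without it may hold another form.

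The libraries held 15847985 to 31895808 counted reads (median 24530658), and the summed markers of neurons, astrocytes, microglia, oligodendrocytes, choroid plexus and endothelium included no gene at 0 in any mouse. App ran from 1522 to 1799 CPM (per-million counts) in WT and from 3274 to 4286 CPM in APPPS1ΔE9 libraries. In 4 pre-plaque libraries titled as placebo-treated WT a genotype field names the transgene, and their App level was 1623 to 1799 CPM, within the WT range, so they were kept as WT as their titles give. Xist, the transcript that marks the inactive X chromosome of female cells, was high (at least 1154 CPM, against at most 5.41 in the others) in 12 of 38 mice although the study describes males. Of these 12, 11 were WT and 1 was APPPS1ΔE9. Sequencing lanes also followed the groups, since lanes 3 and 4 held the post-plaque WT mice and lanes 5 and 6 the post-plaque APPPS1ΔE9 mice, so lane and genotype cannot be told apart there, and the same holds for the pre-plaque genotypes on placebo (WT in lane 4, APPPS1ΔE9 in lane 5) and on anle138b (WT in lanes 4 and 5, APPPS1ΔE9 in lane 6).

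Per kilobase of the principal transcript, Hmgcs1 had the highest level of the 7 genes, at 66.8 ± 12.2 CPM per kb (SD, n = 38), and Idi1 the lowest, at 0.648 ± 0.128 CPM per kb. Sqle followed Hmgcs1 at 23.8 ± 4.64 CPM per kb. Insig1 (16.2 ± 1.98), Fdft1 (15.7 ± 2.87) and Cyp51 (15.2 ± 2.72 CPM per kb) stood close together, and Lss was at 9.80 ± 1.24 CPM per kb. Hmgcs1 was above Sqle, and Sqle above Insig1, in 38 of 38 mice. Insig1 was above Fdft1 in only 22 of 38 mice and Fdft1 above Cyp51 in 20 of 38, so these neighbours did not differ beyond their spread. Cyp51 was above Lss in 37 of 38 mice and Lss above Idi1 in 38 of 38. Idi1 rested on 28 to 75 reads per mouse, whereas the other 6 genes had at least 640 reads in every mouse.

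**Figure D1:**
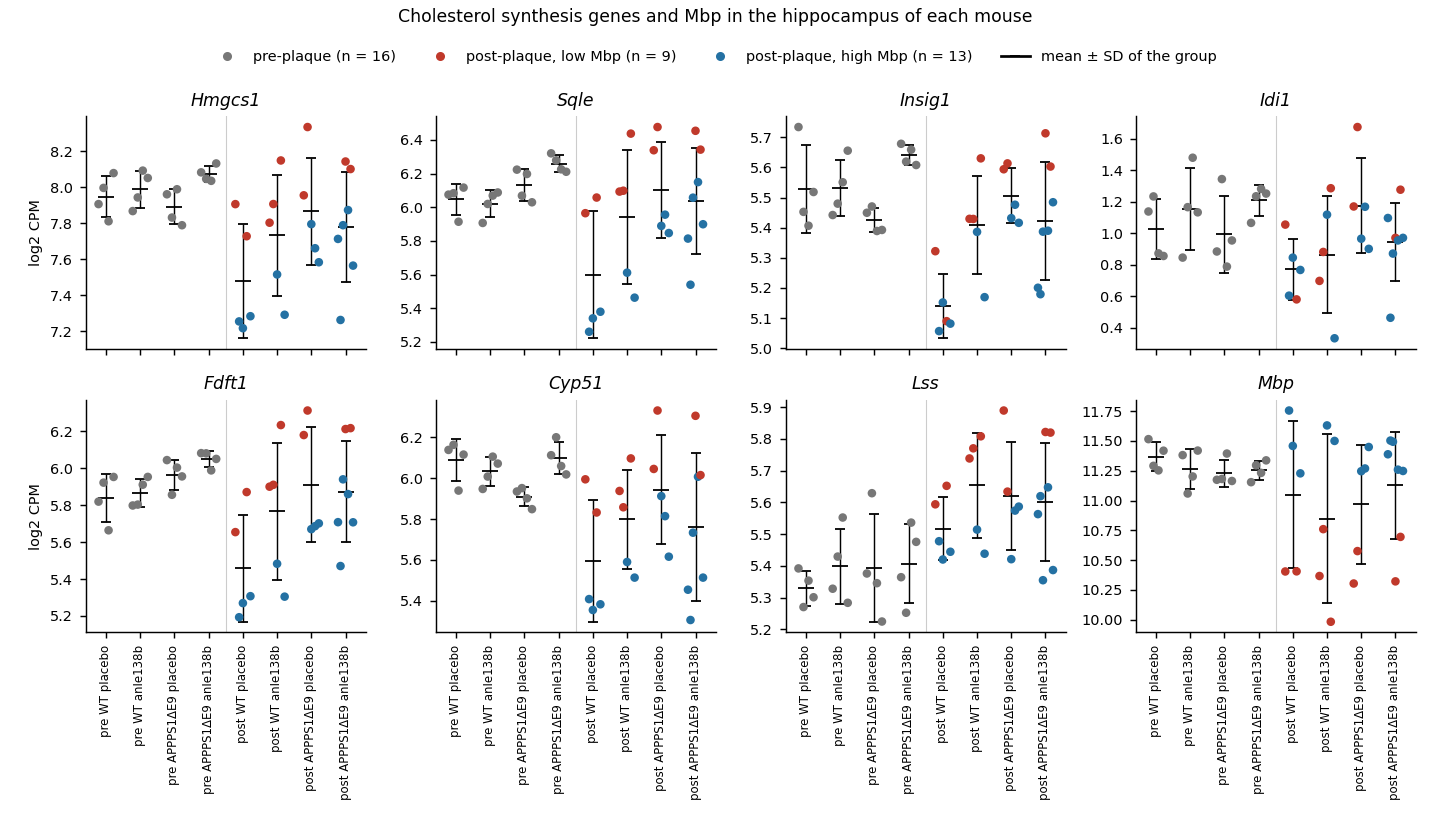
Level of each of the 7 genes and of Mbp in log2 CPM (vertical axes) by group (horizontal axes), 1 point per mouse. Hmgcs1, Sqle, Fdft1 and Cyp51 lie in a narrow band in the 16 pre-plaque mice and spread widely in the 22 post-plaque mice.

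The synthesis genes varied little between pre-plaque mice and much more between post-plaque mice. The SD of the log2 level within groups, pooled over the 4 groups of a cohort, for Hmgcs1 was 0.09 among pre-plaque mice but 0.31 among post-plaque mice, a ratio of 3.34. The ratio was 4.23 for Sqle, 3.96 for Cyp51 and 3.49 for Fdft1. It was lower for Insig1 (1.69), Idi1 (1.36) and Lss (1.31). Over the 18232 genes that passed the filter the median ratio was 1.20, and 16.7% of genes were above 2. Mbp had a ratio of 4.58. Age and cohort cannot be told apart in these ratios.

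Mbp itself fell into 2 separate ranges in the post-plaque mice. The lower range held 9 mice at 1012, 1356 and 1734 CPM (lowest, median and highest), and the upper range held 13 mice at 2398, 2796 and 3457 CPM, with a gap of 0.47 on the log2 scale between them. The 16 pre-plaque mice had 2134, 2474 and 2926 CPM, with no gap wider than 0.10. The low-Mbp mice came from every post-plaque group (2 of 5 WT mice on placebo, 3 of 5 WT mice on anle138b, 2 of 5 APPPS1ΔE9 mice on placebo and 2 of 7 on anle138b) and from every lane used for that cohort. The ranges were drawn from the data and are not groups of the study. The 12 myelin genes, Mbp among them, summed to 2667 to 4262 CPM in the low-Mbp and 5665 to 8418 CPM in the high-Mbp mice. Part of this separation follows from the split by Mbp itself. The 5 neuronal markers summed to 5991 to 6862 CPM in the low-Mbp and 5460 to 6381 CPM in the high-Mbp mice. In whole hippocampus, fewer cells of a type and less RNA per cell cannot be told apart.

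Sqle, Fdft1, Insig1 and Lss had their highest medians in the low-Mbp mice. Sqle was at 62.4, 80.9 and 89.0 CPM (lowest, median and highest) in the 9 low-Mbp mice, at 38.3, 56.2 and 70.9 CPM in the 13 high-Mbp mice and at 59.9, 67.8 and 79.8 CPM in the 16 pre-plaque mice. Fdft1 was at 50.3, 72.4 and 79.4 CPM in the low-Mbp mice, at 36.5, 50.8 and 61.3 CPM in the high-Mbp mice and at 50.6, 61.9 and 67.6 CPM in the pre-plaque mice. The low-Mbp and high-Mbp ranges of Sqle and of Fdft1 overlapped, and the pre-plaque medians of these genes lay between the low-Mbp and high-Mbp medians. Hmgcs1 was at 212, 248 and 323 CPM in the low-Mbp mice, at 149, 189 and 235 CPM in the high-Mbp mice and at 221, 255 and 281 CPM in the pre-plaque mice. Cyp51 was at 56.9, 64.6 and 80.5 CPM in the low-Mbp mice, at 39.5, 45.6 and 64.2 CPM in the high-Mbp mice and at 57.5, 65.7 and 73.5 CPM in the pre-plaque mice. For these 2 genes the pre-plaque mice, whose Mbp was in or near the range of the high-Mbp mice, had medians next to those of the low-Mbp mice. The cohorts also differed in age and in choroid plexus markers. These markers summed to 62.98, 6137 and 7881 CPM (lowest, median and highest) in the pre-plaque mice. The sums were 32.8, 61.5 and 135 CPM in the low-Mbp and 54.6, 135 and 4334 CPM in the high-Mbp mice. The part of age and of choroid plexus content in the differences between cohorts was not tested.

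Lss had an order of medians different from that of Sqle, Fdft1, Hmgcs1 and Cyp51. It was at 48.2, 54.5 and 59.2 CPM in the low-Mbp mice, at 40.8, 44.5 and 50.04 CPM in the high-Mbp mice and at 37.3, 40.95 and 49.4 CPM in the pre-plaque mice, which had the lowest median. Insig1 was at 33.97, 48.2 and 52.4 CPM in the low-Mbp mice, at 33.2, 41.7 and 44.7 CPM in the high-Mbp mice and at 41.8, 45.1 and 53.1 CPM in the pre-plaque mice. Idi1 had medians of 1.996, 1.79 and 2.12 CPM in the same order. All ranges of Insig1 and Idi1 overlapped.

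**Figure D2:**
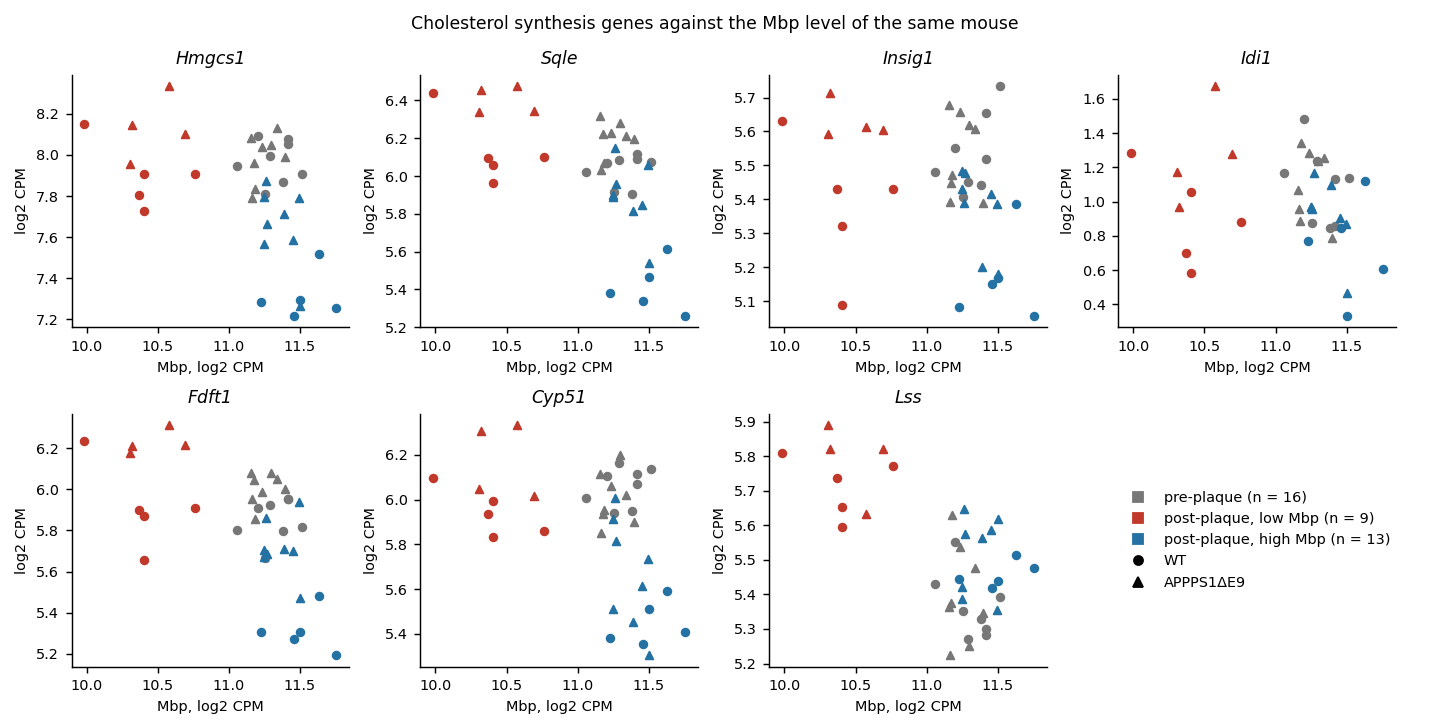
Level of each of the 7 genes (vertical axes, log2 CPM) against Mbp in the same mouse (horizontal axes, log2 CPM), 1 point per mouse. Pre-plaque, low-Mbp post-plaque and high-Mbp post-plaque mice are marked apart. The 9 low-Mbp mice lie at the left of each panel at 1012 to 1734 CPM of Mbp, with Sqle at 62.4 to 89.0 CPM.

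The relation to Mbp was fitted across all 38 mice as a slope within groups, in log2 of the gene per log2 of Mbp, with edgeR's quasi-likelihood test. All 7 genes had a negative slope at an adjusted p under 0.1, where 26.6% of the 18231 genes tested had a negative slope that passed, 25.6% a positive one and 52.2% either. The slope was -0.53 (SE 0.05, adjusted p = 4.89e-11) for Sqle, -0.47 (SE 0.05, adjusted p = 1.01e-09) for Fdft1, -0.44 (SE 0.06, adjusted p = 1.17e-07) for Hmgcs1 and -0.43 (SE 0.06, adjusted p = 1.12e-07) for Cyp51. These 4 genes were thus lower where Mbp was higher, Sqle 0.691-fold for each doubling of Mbp. Slopes were shallower for Lss, at -0.22 (SE 0.04, adjusted p = 7.98e-05), for Insig1, at -0.18 (SE 0.04, adjusted p = 4.07e-04), and for Idi1, at -0.23 (SE 0.11, adjusted p = 0.0749). With the mean of the other 11 myelin genes in place of Mbp, 6 of the 7 passed and Idi1 did not (adjusted p = 0.101). Idi1 also lost its call with DESeq2 (adjusted p = 0.123), and without any one of 8 post-plaque mice, WT mice 52 and 53 on placebo, WT mice 63 and 64 on anle138b, APPPS1ΔE9 mice 86 and 100 on placebo and replicates 2 and 6 of the APPPS1ΔE9 mice on anle138b (adjusted p up to 0.225).

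The slope was then fitted in subsets of the mice. In the 22 post-plaque mice alone, 6 of the 7 genes passed, all but Idi1 (adjusted p = 0.116), as did 54.7% of all genes. In the 16 pre-plaque mice alone 0 of 7 passed, and 0.0113% of all genes did. There the slopes were positive for Hmgcs1 (0.18), Sqle (0.09), Insig1 (0.28), Fdft1 (0.19) and Cyp51 (0.05) and negative for Idi1 (-0.45) and Lss (-0.25). Within the 9 low-Mbp mice 0 of 7 passed (0.619% of all genes) and within the 13 high-Mbp mice 0 of 7 passed (0.0112% of all genes), in fits added after seeing the data. The slopes there were negative for all 7 genes in the low-Mbp mice, from -0.32 (Sqle, SE 0.16) to -0.07 (Idi1, SE 0.47), and for 6 of 7 in the high-Mbp mice, from -0.36 (Sqle, SE 0.29) to -0.13 (Fdft1, SE 0.24), with Lss at 0.11 (SE 0.20). Each of these sets covers a narrow range of Mbp. The slope of Sqle was 0.09 (SE 0.20) in the pre-plaque mice against -0.55 (SE 0.05) in the 22 post-plaque mice. The reason for the different slopes was not tested.

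Correlations of group-centred log2 levels were computed within the 3 sets of mice. Over 42 coefficients, Pearson's r and Spearman's rho of 7 genes in 3 sets, the smallest adjusted p was 0.754 by permutation within groups. In the low-Mbp mice only 48 permutations exist, so no permutation p could fall below 0.0208. A single coefficient of that set could therefore not pass the adjustment, and its result there cannot tell a relation from none. Pearson's r with Mbp ran from -0.25 to 0.39 in the pre-plaque mice (n = 16), from -0.67 to -0.07 in the low-Mbp mice (n = 9) and from -0.37 to 0.16 in the high-Mbp mice (n = 13). The strongest was Sqle in the low-Mbp mice, with r = -0.67 (exact permutation p = 0.333, adjusted 0.754) and Spearman's rho = -0.37 (exact permutation p = 0.542, adjusted 0.761). Without the 2 mice farthest from the median of Mbp its r was -0.04, so it rested on those mice. Within pre-plaque lanes of 6 mice, r of Sqle was 0.04 in lane 4 and 0.43 in lane 5, and that of Insig1 was 0.56 and 0.16.

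**Figure D3:**
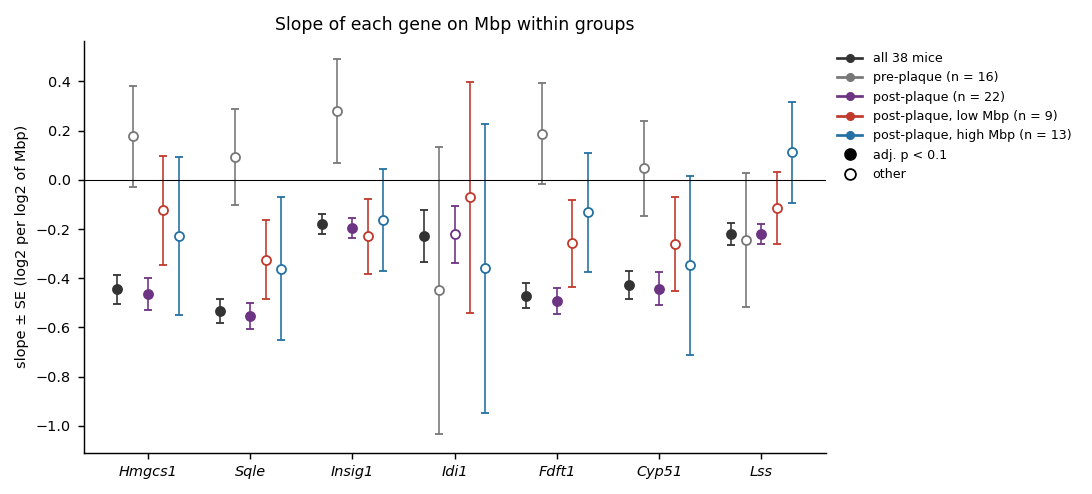
Slope of each of the 7 genes on Mbp (log2 per log2) with its SE as error bars, in all 38 mice and in subsets. The subsets are the pre-plaque mice, the post-plaque mice, and the low-Mbp and high-Mbp post-plaque mice. Post-plaque slopes of Sqle, Fdft1, Hmgcs1 and Cyp51 lie between -0.55 and -0.44, whereas 5 of the 7 pre-plaque slopes are above 0 with wide errors.

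The other genes of the pathway, a list of 19 sterol genes that holds none of the 7, had 13 members with a negative slope past the threshold and 1 with a positive slope, with a median slope of -0.15 against -0.00042 over all genes. Among the steepest were Stard4, a cytosolic sterol carrier, at -0.53, and the synthesis enzymes Nsdhl at -0.52, Fdps at -0.48 and Msmo1 at -0.47. The positive one was Ebp, a sterol isomerase, at 0.12, which is named here after its value was seen. Of 9 genes of cholesterol efflux and turnover, 4 had positive and 2 negative slopes that passed, 6 of 9 in all where 52.2% of all genes passed. The oxysterol receptor Nr1h3 (0.49) and the exporters Abcg1 (0.34) and Abca1 (0.28) were higher with Mbp, whereas Cyp46a1 (-0.15), which turns neuronal cholesterol into an oxysterol that leaves the brain, and Abcg4 (-0.13) were lower. Of 9 fatty acid targets of SREBPs, 3 had positive and 3 negative slopes that passed, again 6 of 9, so neither share is far from that of all genes. The desaturase Scd1 (0.27) and Srebf1 (0.19), which encodes an SREBP, were higher with Mbp, and Acly (-0.33), Fads2 (-0.265) and Acaca (-0.22), which supply or modify fatty acids, were lower. All 11 other myelin genes and all 5 microglial genes had positive slopes that passed, so the levels of those lists moved with Mbp too. Of the 5 neuronal markers 3 had negative slopes that passed, Gad1 at -0.26, Syt1 at -0.17 and Snap25 at -0.11, and Rbfox3 had a positive one at 0.44. Of the 5 astrocyte markers 2 had negative slopes that passed, Slc1a3 and Aldh1l1 at -0.11 each, and of the choroid plexus and endothelial markers 0 of 5 and 0 of 5 passed. The part of these cell types in the slopes of the 7 genes was not tested.

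Genes whose level followed the mean of the 7 most closely over the 38 mice, after centring on group means, were ranked by Pearson's r, as a description across mice that share libraries and the split in Mbp. Msmo1, which acts after Cyp51 in the pathway, had r = 0.94, Stard4 0.92 and the amino acid transporter Slc1a4 0.91. Necab1, Prokr2, Xylt1, Clec18a and Nabp1 were at 0.90. Over the 16 pre-plaque mice alone r was 0.59 for Msmo1, 0.42 for Stard4, 0.51 for Slc1a4 and 0.10 for Necab1. Of the 19 other sterol genes 13 had r above 0.5, as had 3246 of 18225 genes. The median r was 0.60 for the sterol genes, 0.56 for the 5 neuronal markers, of which 3 were above 0.5, and -0.81 for the 12 myelin genes.

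In the pre-plaque mice the first question was whether the pathway differed between the genotypes. When the genotypes were compared on placebo, 0 of 7 genes passed with edgeR at an adjusted p under 0.1, 1 had an unadjusted p under 0.05 and DESeq2 called 0 of 7, where 0.0715% of all genes passed in edgeR. Of all 16774 genes tested, 1858 had an unadjusted p under 0.05. Cyp51 was at 61.1, 61.8, 59.7 and 57.5 CPM in the APPPS1ΔE9 mice and at 68.1 ± 4.66 CPM (SD, n = 4) in WT mice. Its ranges overlapped, and its log2 difference was -0.18 (SE 0.06, adjusted p = 0.36). The other 6 differences lay between -0.11 (Insig1) and 0.12 (Fdft1).

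The same genotypes were compared under anle138b. Again 0 of 7 genes passed (0.047% of all genes), and DESeq2 called 1, Sqle (0.134% of all genes). An unadjusted p under 0.05 was found for 2 of 7 and for 961 of all 17033 genes. Sqle was at 79.8, 77.5, 74.7 and 73.99 CPM in anle138b-treated APPPS1ΔE9 mice and at 59.9, 64.8, 67.1 and 67.9 CPM in anle138b-treated WT mice. Every APPPS1ΔE9 mouse was above every WT mouse, with a log2 difference of 0.24 (SE 0.05, edgeR adjusted p = 0.456). Fdft1 was at 67.6, 67.6, 63.4 and 66.2 CPM against 55.6, 55.7, 60.1 and 61.9 CPM, also without overlap, with a log2 difference of 0.19 (SE 0.05, adjusted p = 0.739). The exact permutation p was 0.0286 for each gene, the smallest that 4 against 4 mice allow. So 2 of 7 genes lay above WT without overlap, as did 1.9% of all genes, in groups that shared no lane. Over both chows together 0 of 7 passed in edgeR (0.218% of all genes). There 2 of 7, and 1864 of all 17404 genes, had an unadjusted p under 0.05. DESeq2 called the same 2 genes (0.525% of all genes). Sqle differed there by 0.16 (SE 0.04, adjusted p = 0.213) and Fdft1 by 0.15 (SE 0.04, adjusted p = 0.249). In that comparison 2 of the 19 other sterol genes rose, Srebf2, which encodes the SREBP that drives cholesterol synthesis, by 0.25 (adjusted p = 0.0124) and Stard4 by 0.22 (adjusted p = 0.09). High Xist was found in 3 of 4 WT mice on placebo, in 2 of 4 on anle138b and in 0 of 4 APPPS1ΔE9 mice on either chow. With the summed level of Y-linked genes as a covariate, Sqle differed by 0.19 (adjusted p = 0.403) and Fdft1 by 0.22 (adjusted p = 0.381). Over all genes 7 then passed in place of 38. The part of sex in the Srebf2 and Stard4 differences was not tested.

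Anle138b was then compared with placebo within each genotype. In pre-plaque APPPS1ΔE9 mice 0 of 7 genes passed (0.0529% of all genes), and DESeq2 called 2, Hmgcs1 and Insig1 (0.653% of all genes). An unadjusted p under 0.05 was found for 4 of 7 and for 2233 of all 17009 genes. Insig1 was at 51.1, 49.1, 50.4 and 48.7 CPM with anle138b and at 43.6, 44.3, 41.8 and 41.9 CPM with placebo. The groups did not overlap, and the log2 difference was 0.21 (SE 0.05, adjusted p = 0.247). Hmgcs1 was at 271, 264, 263 and 281 CPM against 249, 228, 254 and 221 CPM, with a log2 difference of 0.18 (SE 0.06, adjusted p = 0.31). Cyp51 was at 69.1, 73.5, 66.6 and 64.8 CPM against 61.1, 61.8, 59.7 and 57.5 CPM, with a log2 difference of 0.19 (SE 0.05, adjusted p = 0.28). All 3 genes were higher in every anle138b-treated mouse (exact permutation p = 0.0286 each, the smallest possible), whereas 2.74% of all genes were. Without placebo-treated mouse 17, Insig1 passed with an adjusted p of 0.093. The anle138b mice were sequenced in lane 6 and the placebo mice in lane 5, so chow and lane cannot be told apart. In the same comparison all 5 choroid plexus markers had positive differences, from 0.98 to 1.44, and summed to 164 to 7463 CPM with anle138b and 62.98 to 6667 CPM with placebo. Microglial markers had a median difference of -0.23, 2 of 5 at an unadjusted p under 0.05, and summed to 271 to 322 CPM against 293 to 388 CPM. None of these markers was called, and their part in the differences of the 3 genes was not tested.

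In pre-plaque WT mice the differences between anle138b and placebo ran from -0.05 (Cyp51) to 0.14 (Idi1). There 0 of 7 genes passed in edgeR, 0 had an unadjusted p under 0.05, DESeq2 called 0, and 0% of all genes passed in edgeR. Over both genotypes 0 of 7 passed as well (0.0172% of all genes), and DESeq2 called 0. There 2 genes had an unadjusted p under 0.05, Hmgcs1 and Insig1 at 0.12 each (adjusted p = 0.691). So did 1233 of all 17404 genes. The interaction, the genotype difference under anle138b minus that under placebo, was 0.25 (SE 0.08, adjusted p = 0.618) for Cyp51 and 0.22 (SE 0.09, adjusted p = 0.618) for Insig1. Those were the 2 genes with an unadjusted p under 0.05, which 1390 of all 17404 genes had. In either tool 0 of 7 passed, and 0% of all genes passed in edgeR.

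**Figure D4:**
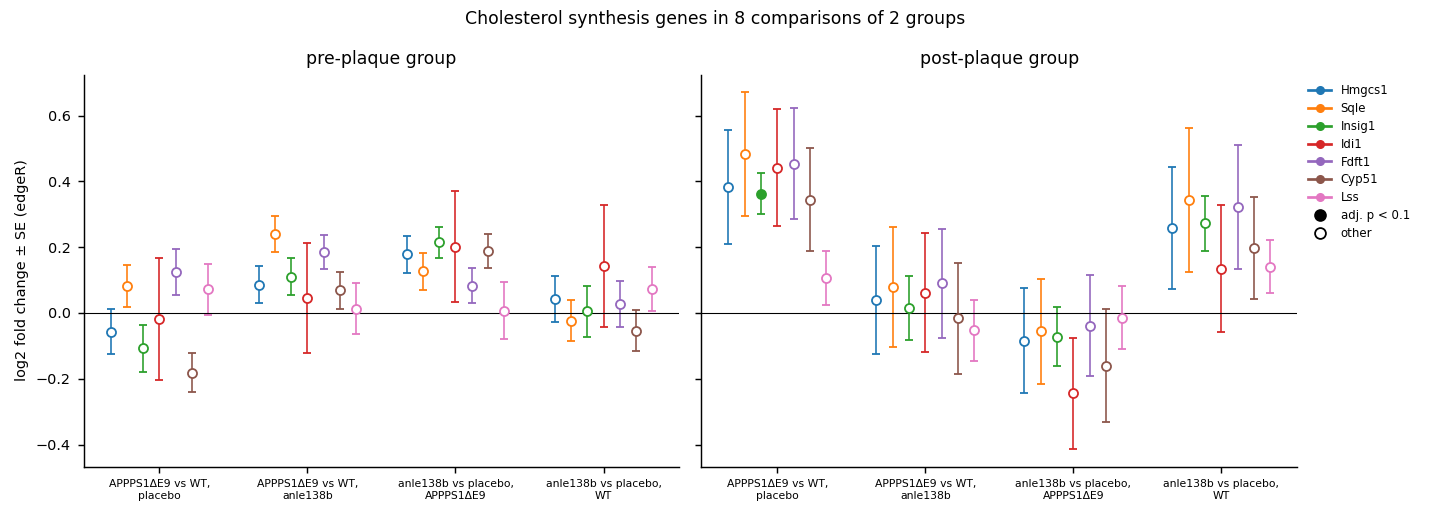
Log2 difference of each of the 7 genes (edgeR, error bars are SE) in the comparisons of genotype and of chow in both cohorts. In the post-plaque placebo comparison the 7 differences run from 0.11 (Lss) to 0.48 (Sqle), and Insig1 at 0.36 has the smallest SE, 0.06.

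In the post-plaque mice the genotype comparison under placebo gave the only difference of the 7 genes that edgeR called between pairs of groups. Insig1 was at 39.9, 33.2, 35.5, 33.97 and 33.8 CPM in placebo-treated WT mice and at 48.2, 48.9, 43.1, 44.4 and 42.6 CPM in placebo-treated APPPS1ΔE9 mice. Every APPPS1ΔE9 mouse was above every WT mouse, which held for 1 of the 7 genes and for 1.08% of all genes. Insig1 rose by 0.36 on the log2 scale, or 1.29-fold (SE 0.06 on the log2 scale, adjusted p = 0.0463, exact permutation p = 0.00794, the smallest that 5 against 5 mice allow). Thus 1 of 7 genes was called, where 0.324% of all genes were. In the same groups the summed astrocyte markers were at 1502 to 2231 CPM in APPPS1ΔE9 and 1260 to 1429 CPM in WT mice. Taken singly, 3 of the 5 astrocyte markers had a positive log2 difference. The differences ran from -0.15 to 1.10 with a median of 0.03, so the list did not rise as a whole. Summed microglial markers were at 318 to 409.7 CPM against 230 to 296 CPM, also without overlap, and choroid plexus markers at 42.2 to 135 CPM against 67.3 to 305 CPM. The part of these cell types in the Insig1 difference was not tested.

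The Insig1 call depended on single mice and on settings. Leaving out 1 mouse at a time kept the call without WT mouse 52 (adjusted p = 0.0273), APPPS1ΔE9 mouse 87 (0.0829) or APPPS1ΔE9 mouse 100 (0.086). It was lost without any one of WT mice 53, 54, 55 and 56 or of APPPS1ΔE9 mice 57, 86 and 91, with adjusted p up to 0.187, while the log2 difference stayed between 0.34 and 0.41 over all 10 fits. With the summed level of Y-linked genes as a covariate, which stands for the sex split of the WT group, Insig1 differed by 0.43 (SE 0.09, adjusted p = 0.316) and 0 of 7 genes passed (0.0782% of all genes). The call was also lost in the fit of all 4 post-plaque groups (adjusted p = 0.141) and with the replicate number as a block (adjusted p = 0.246).

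Sqle, Hmgcs1, Fdft1 and Cyp51 had a larger spread than Insig1 in the same groups, with low-Mbp WT mice at the top. Sqle was at 62.4, 38.3, 40.4, 66.5 and 41.55 CPM in WT mice 52 to 56 and at 80.85, 89.0, 59.2, 61.998 and 57.5 CPM in APPPS1ΔE9 mice 57, 86, 87, 91 and 100. In each genotype the 2 highest mice were the 2 low-Mbp mice, WT mice 52 and 55 and APPPS1ΔE9 mice 57 and 86. Hmgcs1 was at 239.95, 153, 149, 212 and 156 CPM against 248, 323, 222, 202 and 192 CPM, and Fdft1 at 50.3, 36.5, 38.5, 58.4 and 39.5 CPM against 72.4, 79.4, 50.8, 51.4 and 51.95 CPM. Cyp51 was at 63.7, 42.4, 40.8, 56.9 and 41.6 CPM against 66.0, 80.5, 60.1, 56.2 and 49.0 CPM. In each of these 4 genes the genotypes overlapped through the low-Mbp WT mice. Over all 10 mice the log2 difference was 0.48 (SE 0.19) for Sqle, 0.45 (SE 0.17) for Fdft1, 0.38 (SE 0.17) for Hmgcs1 and 0.34 (SE 0.16) for Cyp51, with adjusted p from 0.98 to 1. Idi1, at 1.41 to 1.996 CPM in WT and 1.79 to 3.11 CPM in APPPS1ΔE9 mice, differed by 0.44 (SE 0.18, adjusted p = 1). Lss, at 42.7 to 50.2 CPM against 42.8 to 59.2 CPM, differed by 0.11 (SE 0.08, adjusted p = 1).

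The Mbp ranges of the genotypes overlapped, at 1356, 3457, 2813, 1357 and 2398 CPM in WT and 1264, 1527, 2429, 2468 and 2796 CPM in APPPS1ΔE9 mice. With the Mbp level of each mouse as a covariate, 3 of the 7 genes passed, where 0.764% of all genes did. Sqle was higher in APPPS1ΔE9 mice by 0.45 (SE 0.06, adjusted p = 0.00382), Fdft1 by 0.41 (SE 0.07, adjusted p = 0.0174) and Insig1 by 0.35 (SE 0.05, adjusted p = 0.00613). Hmgcs1 at 0.35 (adjusted p = 0.173), Cyp51 at 0.32 (adjusted p = 0.191), Idi1 at 0.41 (adjusted p = 0.6725) and Lss at 0.09 (adjusted p = 0.874) did not pass. The sizes were close to those without the covariate, and the SE of Sqle went from 0.19 to 0.06. High Xist was found in 3 of these 5 WT and 0 of these 5 APPPS1ΔE9 mice, and the lanes also followed genotype. Mbp and the Y-linked covariate were not fitted together.

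Leaving out the 4 low-Mbp mice, a comparison of 3 against 3 mice added after seeing the data, gave 5 of 7 genes past the threshold, where 0.299% of all genes passed. The differences were 0.57 (SE 0.05, adjusted p = 0.00294) for Sqle, 0.43 (SE 0.06, adjusted p = 0.0197) for Hmgcs1 and 0.43 (SE 0.05, adjusted p = 0.01185) for Fdft1. They were 0.40 (SE 0.07, adjusted p = 0.0854) for Cyp51 and 0.34 (SE 0.05, adjusted p = 0.0403) for Insig1. In these 6 mice 6 of the 7 genes, all but Lss, were higher in every APPPS1ΔE9 than in every WT mouse, as were 8.64% of all genes. Idi1 at 0.28 (adjusted p = 0.734) and Lss at 0.08 (adjusted p = 0.766) did not pass. The Y-linked covariate was not fitted in these 6 mice.

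**Figure D5:**
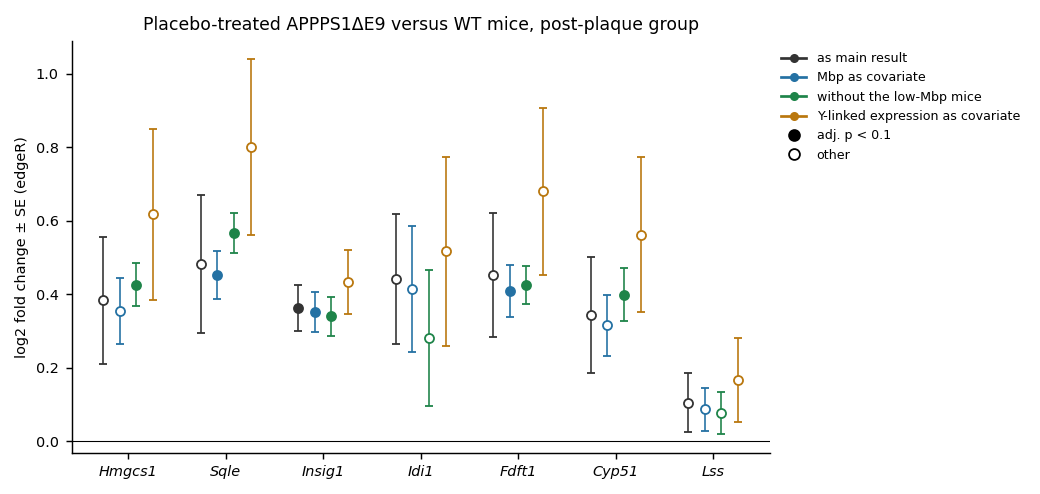
Log2 difference of APPPS1ΔE9 from WT post-plaque mice on placebo for each of the 7 genes, with SE as error bars, in all 10 mice, with Mbp as a covariate and without the 4 low-Mbp mice. For Sqle the SE shrinks from 0.19 to 0.06 and 0.05, with differences of 0.48, 0.45 and 0.57.

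Of the 19 other sterol genes 0 were called between post-plaque genotypes under placebo, 8 had an unadjusted p under 0.05 and 17 had a positive difference, with a median of 0.24 against -0.0025 over all genes. An unadjusted p under 0.05 was found for 696 of all 16971 genes. The 7 genes had a median of 0.38. Of 9 efflux and turnover genes and 9 fatty acid targets 0 and 0 were called, with 1 and 0 at an unadjusted p under 0.05. Of the 12 myelin genes 0 were called, 0 had an unadjusted p under 0.05, and the median difference was -0.09.

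Under anle138b the differences between post-plaque genotypes lay near 0 in all mice. Insig1 was at 36.2, 41.9 and 52.4 CPM (lowest, median and highest) in the 7 anle138b-treated APPPS1ΔE9 mice and at 42.6 ± 4.81 CPM (SD, n = 5) in anle138b-treated WT mice. Sqle was at 46.4, 66.5 and 87.6 CPM in the APPPS1ΔE9 mice and at 63.2 ± 17.1 CPM (SD, n = 5) in WT mice. The groups overlapped for all 7 genes, and the log2 differences ran from -0.05 (Lss) to 0.09 (Fdft1). There 0 of 7 genes passed in edgeR, 0 had an unadjusted p under 0.05 and DESeq2 called 0, while 0.723% of all genes passed in edgeR. With Mbp as a covariate Sqle and Fdft1 differed by 0.25 each (adjusted p = 0.4965 and 0.421) and Insig1 by 0.09 (adjusted p = 0.961). Without the low-Mbp mice, which left 2 WT and 5 APPPS1ΔE9 mice, Sqle differed by 0.36 (SE 0.15, adjusted p = 0.9997). Fdft1 differed by 0.34 (SE 0.12, adjusted p = 0.95) and Hmgcs1 by 0.24 (SE 0.15, adjusted p = 0.9997). The other genes differed less, Idi1 by 0.10, Cyp51 by 0.07, Insig1 by 0.05 and Lss by 0.04 (adjusted p = 0.9997 each).

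Anle138b against placebo gave no called gene among the 7 in post-plaque mice of either genotype. In APPPS1ΔE9 mice the differences between anle138b and placebo were from -0.24 (Idi1) to -0.01 (Lss). In that comparison 0 of 7 passed in edgeR, 0 had an unadjusted p under 0.05, DESeq2 called 0, and 0% of all genes passed. In WT mice all 7 differences were positive, from 0.13 (Idi1) to 0.34 (Sqle, SE 0.22). Insig1 was at 35.9, 43.0 and 49.4 CPM (lowest, median and highest of 5) with anle138b against 33.2, 33.97 and 39.9 CPM with placebo, in overlapping ranges, with a log2 difference of 0.27 (SE 0.08, adjusted p = 1, exact permutation p = 0.0159). It was the 1 gene of the 7 with an unadjusted p under 0.05, which 212 of all 16986 genes had. In edgeR 0 of 7 passed, DESeq2 called 0 and 0% of all genes passed. This comparison and the genotype comparison under placebo use the same 5 placebo-treated WT mice, in which Insig1 was low.

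Whether the genotype difference depended on chow was tested as an interaction. All 7 interaction estimates were negative, from -0.40 (Sqle, SE 0.28) to -0.16 (Lss, SE 0.13). Insig1, at -0.35 (SE 0.12, unadjusted p = 0.0112 and adjusted p = 0.989 by edgeR), was the 1 gene with an unadjusted p under 0.05. Among all 17668 genes 407 had such a p. In edgeR 0 of 7 passed, as did 0% of all genes, and DESeq2 called 0 of 7. With Mbp as a covariate the estimates were closer to 0, at -0.20 for Sqle, -0.17 for Hmgcs1, -0.16 for Fdft1, -0.21 for Cyp51, -0.29 for Idi1, -0.27 for Insig1 and -0.07 for Lss (adjusted p = 1 each). Without the low-Mbp mice they were -0.33 for Cyp51, -0.29 for Insig1, -0.20 for Sqle, -0.18 for Hmgcs1, -0.17 for Idi1, -0.08 for Fdft1 and -0.03 for Lss. A genotype difference under placebo and a smaller one under anle138b are thus not shown to differ for any of the 7 genes.

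Over both chows together 0 of 7 genes passed between post-plaque genotypes (1.43% of all genes), 2 had an unadjusted p under 0.05 and DESeq2 called 0. Among all 17668 genes 1209 had an unadjusted p under 0.05. Fdft1 differed by 0.27 (SE 0.13, adjusted p = 0.7), Insig1 by 0.19 (SE 0.06, adjusted p = 0.289) and Sqle by 0.28 (SE 0.14, adjusted p = 0.757). With Mbp as a covariate 4 of 7 passed, where 2.19% of all genes did. Sqle was then higher in APPPS1ΔE9 mice by 0.36 (adjusted p = 1.98e-04), Fdft1 by 0.33 (adjusted p = 4.11e-04), Hmgcs1 by 0.27 (adjusted p = 0.0415) and Insig1 by 0.21 (adjusted p = 0.006485). Without the 9 low-Mbp mice 2 of 7 passed, Sqle at 0.47 (adjusted p = 0.0239) and Fdft1 at 0.39 (adjusted p = 0.0134), where 0.936% of all genes did. With the Y-linked covariate and without Mbp 0 of 7 passed, where 294 of all 18053 genes did. Sqle was then at 0.34 (adjusted p = 0.675), Fdft1 at 0.32 (adjusted p = 0.653) and Insig1 at 0.21 (adjusted p = 0.423). High Xist was found in 3 of 5 WT mice on each chow, and in 0 of 5 (placebo) and 1 of 7 (anle138b) APPPS1ΔE9 mice. Mbp and the Y-linked covariate were not fitted together here either. Of the other lists, in the fit without covariates, Hsd17b7, a reductase of sterol synthesis, rose by 0.20 (adjusted p = 0.027). Ch25h, which hydroxylates cholesterol, was higher by 1.44, given as a description only. All 9 efflux and turnover genes passed the filter on low counts here, but 8 did between the WT groups. Ch25h, low in WT mice, thus passed through the APPPS1ΔE9 mice, where it was higher. Anle138b over both genotypes gave differences from -0.06 (Idi1) to 0.14 (Sqle), with 0 of 7 genes past the threshold in either tool, 0 at an unadjusted p under 0.05 and 0% of all genes called in edgeR.

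The genotype difference was last compared between cohorts. Under placebo it was larger in the post-plaque than in the pre-plaque mice by 0.47 (SE 0.10, unadjusted p = 1.33e-04 and adjusted p = 0.635 by edgeR) for Insig1 and by 0.52 (SE 0.19, adjusted p = 0.742) for Cyp51. In edgeR 0 of 7 genes passed, as did 0% of all genes, while DESeq2 called 1, Insig1 (0.0416% of all genes). An unadjusted p under 0.05 was found for 2 of 7 and for 1089 of all 17681 genes. Under anle138b the 7 estimates lay between -0.16 (Sqle) and 0.02 (Idi1), with 0 of 7 past the threshold in either tool, 0 at an unadjusted p under 0.05 and 0.028% of all genes called in edgeR. Age at analysis and cohort cannot be told apart in this comparison.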

How the data were processed

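The authors prepared poly(A) libraries from hippocampus (TruSeq), mapped reads to mm10 with STAR and counted them per gene with HTSeq. The deposited values are whole-number counts per Ensembl gene, 1 column per mouse. Annotation release and strand setting are not given in the sources used here. GENCODE M21 named 48349 of the 48709 genes.

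Counts were tested with edgeR 4.0.16 in R 4.3.3: filterByExpr (minimum count 10, total 15), TMM, robust glmQLFit and glmQLFTest on the groups compared, with Benjamini-Hochberg adjustment over all genes tested and a threshold of 0.1. Interactions used all groups involved. SE is the log2 difference divided by the square root of F. Levels are CPM with TMM, except App, Xist and the marker sums, which are CPM of all counted reads. Log2 levels used a prior count of 2. The script was tested on simulated counts. Alternatives were DESeq2 1.42.0, its size factors, no filter, a threshold of 0.05, covariates for Mbp and Y-linked genes, the replicate number as a block, all groups of a cohort, and leaving out each mouse. No pair of the 75 pairs of libraries within groups was a duplicate (chi-square per degree of freedom 2.99 to 59.6). Named genes were the 7 genes, Mbp, up to 5 called genes of each list, and the closest in pattern. The genes and lists were chosen with earlier results of these data known, and some genes of the lists and of the ranking are not reported here. A correlation pooled over all post-plaque mice, or over all 38, was planned and is not given, because Mbp fell into separate ranges.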

Additional observations from a re-analysis of the deposited data

Results flagged for a closer look

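In the placebo-treated APPPS1ΔE9 pre-plaque mice, Mbp was at 2692 CPM in mouse 74 and at 2294 to 2321 CPM in the other 3, a gap of 0.926 of the range of the group. It was the 1 sample that stood apart among 64 groups of values, and chance marks about 1 in 20 groups.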

How the results depend on the processing

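Over 18 counts of the 7 genes called, 130 of 144 alternatives other than leaving out single mice gave the same count within 1.5 times and 14 did not. DESeq2 called 1 gene between pre-plaque genotypes under anle138b, 2 for anle138b in pre-plaque APPPS1ΔE9 mice, 2 between pre-plaque genotypes over both chows and 1 for genotype by cohort under placebo, in place of 0. Between post-plaque genotypes under placebo the count of 1 became 0 with the Y-linked covariate, 0 with the fit of all 4 groups, 3 with Mbp as a covariate and 5 without the low-Mbp mice. Over both chows it went from 0 to 4 with Mbp as a covariate and to 2 without the low-Mbp mice. The count of 7 slopes on Mbp became 0 in the pre-plaque, the low-Mbp and the high-Mbp mice alone, where fewer mice were fitted. There the slope turned to 0.18 for Hmgcs1, 0.091 for Sqle, 0.28 for Insig1, 0.19 for Fdft1 and 0.046 for Cyp51 in the pre-plaque mice, and to 0.11 for Lss in the high-Mbp mice. The cause of these shifts was not tested.

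With the replicate number as a block, 0 of 7 genes were called between post-plaque genotypes under placebo (Insig1 adjusted p = 0.246) 27 of all genes in place of 55, and 6 slopes on Mbp in place of 7 (Idi1 adjusted p = 0.177). Same-numbered mice share only a number: their deviations correlated at -0.48 to 0.51 in that comparison, and no comparison had every pair above 0.1.

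Leaving out 1 mouse gave 0 to 1 genes called between post-plaque genotypes under placebo, 0 to 1 for anle138b in pre-plaque APPPS1ΔE9 mice and 6 to 7 slopes on Mbp, Idi1 being lost in 8 of 38 fits. In all, 258 of 266 such fits gave the same count.

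Counts over all genes moved more. Between pre-plaque genotypes under placebo 12 genes became 89 with DESeq2, 110 without the filter, 35 with all groups, 6 with the Y-linked covariate and 5 with Mbp. Under anle138b 8 became 42 with DESeq2 and 14 with the block, and over both chows 38 became 173, 25 without the filter, 7 with the Y-linked covariate and 19 with Mbp. For anle138b in pre-plaque APPPS1ΔE9 mice 9 became 205 with DESeq2, 120 without the filter, 73 with the Y-linked covariate, 5 with Mbp and 3 with all groups, in WT mice 0 became 2 with DESeq2 and 1 with the block or lane 4 only, and over both genotypes 3 became 27 with DESeq2. Between post-plaque genotypes under placebo 55 became 113 with DESeq2, 134 with Mbp and 14 with the Y-linked covariate. Under anle138b 124 became 188 with DESeq2, 277 with the Y-linked covariate, 21 with the block and 6 without the low-Mbp mice, and over both chows 252 became 390 with Mbp and 167 without the low-Mbp mice. For anle138b in post-plaque WT mice 0 became 1 with the block and 2 without the low-Mbp mice. The interactions went from 0 to 28 (pre-plaque) and 2 (post-plaque) with DESeq2, genotype by cohort from 0 to 14 under placebo and from 5 to 42 under anle138b, where the Y-linked covariate gave 20, the block 15, Mbp 11 and the fit without the low-Mbp mice 0. The 9518 slopes on Mbp became 2 in the pre-plaque, 110 in the low-Mbp and 2 in the high-Mbp mice. Depth limits Idi1 most, at 28 to 75 reads per mouse.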

Other observations

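In the 16 pre-plaque mice, where Mbp varied little, the 7 genes did not all move together. Of their 21 pairs, 9 had a Pearson's r above 0.5 after centring on group means, with a median of 0.33, as a description across mice whose levels share a library and its scaling. Hmgcs1 was tied to Sqle (r = 0.84) and Fdft1 (r = 0.84), whereas Fdft1 and Lss had r = -0.42 and Hmgcs1 and Lss r = 0.03.

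Ch25h, an enzyme that hydroxylates cholesterol, was low in every group, at 0.345 ± 0.252 CPM (SD, n = 5) on placebo and 0.349 ± 0.0752 CPM (SD, n = 5) on anle138b in WT post-plaque mice. In APPPS1ΔE9 post-plaque mice its level was 0.973 ± 0.239 CPM (SD, n = 5) on placebo and 0.894 ± 0.354 CPM (SD, n = 7) on anle138b. On placebo in the pre-plaque mice it was 0.603 ± 0.122 CPM (SD, n = 4) in APPPS1ΔE9 and 0.215 ± 0.0541 CPM (SD, n = 4) in WT mice. Levels on anle138b in the pre-plaque mice are not given. Between those genotypes 8 of the 9 efflux and turnover genes passed the filter on low counts. These levels are a description, since a gene this low passes the filter only through the groups where it is higher.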
